A study of Mus musculus with 44 samples.

Results

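Dbp, Tef and Hlf, the 3 mouse genes for the PAR bZIP transcription factors, were followed in kidney RNA of wild-type mice and of mice without the clock gene Bmal1. They were taken as a family by name, 3 of the 12874 genes tested and of the 24733 genes with any value above 0, and they hold 17 of the 88198 transcripts quantified. PAR bZIP factors are leucine-zipper proteins with a domain rich in proline and acidic amino acids, and they bind DNA as dimers at elements called D-boxes. Their genes are known as clock outputs: the dimer of BMAL1 (gene Arntl) and CLOCK drives Dbp through E-box elements, and NFIL3, a bZIP repressor, binds D-boxes in the opposite phase. In liver and kidney the family is known for controlling enzymes and transporters that handle drugs, haem, amino acids and lipids.

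The libraries came from kidneys of 129SV mice, 8 to 12 weeks old, under a night-restricted feeding regime. Wild-type mice (WT) and Bmal1 knockout mice (KO) were sampled at zeitgeber time (ZT, in hours) 0, 4, 8, 12, 16 and 20. Every genotype at every time had 2 libraries of polyadenylated RNA, A and B, which made 12 groups and 24 libraries. Strain and feeding were shared by all groups. The labels do not say whether A and B are separate animals, so the spread between the 2 libraries of a group may be technical. The p-values of the differences at each time measure only that spread. Those of the mean genotype difference and of the rhythm tests also reflect what their models leave out. This includes a genotype difference that changes with time and a departure from a smooth 24-hour wave. Values are in TPM, a unit of transcript abundance that is already divided by transcript length. TPM keeps no sequencing depth, so the depth is unknown and no counting interval is given.

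Sequences around the E-boxes and D-boxes of the 3 genes are shown because these are the elements through which the family is known to be driven and to act. The letters searched were CACGTG for the E-box, and TTATGTAA and TTACGTAA for the D-box, on both strands. Sequences were read from the GRCm38.p6 genome with start sites from RefSeq, are written 5′ to 3′ on the strand of the gene (plus for Dbp and Tef, minus for Hlf), and have the motif in capitals.
Dbp E-box in intron 2, chr7:45707702-45707727: attccctcgcCACGTGagtccgcctt
Dbp E-box in intron 2, chr7:45707815-45707840: ctgtaggccaCACGTGatgcggccct
Tef E-box at the upstream start, chr15:81802536-81802561: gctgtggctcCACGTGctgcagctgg
Tef E-box at the downstream start, chr15:81811266-81811291: cctggcccagCACGTGtctacatcgt
Hlf E-box in intron 1, chr11:90389628-90389653: tgagcaggctCACGTGtaaccgcgtg
Tef D-box upstream, chr15:81801298-81801325: gcgctgtggaTTATGTAAtatataatat
Tef D-box in intron 1, chr15:81803274-81803301: tagaagctggTTATGTAAcaggaccaca

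Tef has 2 RefSeq start sites, and the E-boxes shown lie 127 and 138 bases before them; the first is in the 5′ UTR of the transcript Tef-202, which starts further upstream. Both of Tef's 300-base promoters (250 bases before to 50 after a start) hold an E-box, and 7.15% of all 32851 RefSeq promoters do. Within 2000 bases on either side of a start, Tef had 5 E-boxes over its 2 windows, Hlf had 1, at 1274 bases into the gene, and Dbp had 0. Of 30004 such windows of 4001 bases, 42.8% hold an E-box. The E-boxes of Dbp were found when the search was widened, after that 0 was seen, to the whole gene, and start 2624 and 2737 bases from the annotated gene start. Windows of that length, 5116 bases from each start, hold an E-box in 47.1% of cases. Tef and Hlf were not searched beyond 2000 bases from a start, unlike Dbp. Within those windows TTATGTAA was found at Tef alone among the 3 genes, 1365 bases before and 611 bases after its upstream start. Of all 4001-base windows 15.0% had at least 1 match. TTACGTAA was found in 0 of the members' windows and in 1.02% of all of them. A match is a description of the letters and not a measured binding site.

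Some facts of the libraries touch the values below. Arntl RNA, summed over its transcripts, ranged from 0.295 to 12.9 TPM in WT and from 4.19 to 6.28 TPM in KO; the labels do not say which part of the gene was deleted, so this sum does not check the genotype labels. The library labelled KO ZT4 A went against its label. Its Nr1d1, a clock repressor gene that BMAL1 is known to drive, stood at 23.9 TPM, while the median of the 12 KO libraries was 2.04 and that of WT 12.8. Its Cry1, another clock repressor gene, stood at 1.03 TPM, against a KO median of 13.6 and a WT median of 4.34. Those medians cover all times. At ZT4 itself, WT libraries A and B held 22.03 and 32.95 TPM of Nr1d1, and 1.203 and 0.8447 TPM of Cry1. For both genes the library labelled KO ZT4 A lay between these WT values. Its partner KO ZT4 B, at 2.754 TPM of Nr1d1 and 13.58 TPM of Cry1, did not. The library labelled KO ZT4 A was kept under its label, and values without it are given for calls of the members that it changed. Markers of proximal tubule, loop of Henle, distal tubule, collecting duct, podocytes and endothelium were present in every library. The summed podocyte markers (2 of 2 detected) ran from 17.6 to 30.8 TPM in WT and from 30.6 to 42.6 in KO. The summed proximal tubule markers (4 of 4, nearly all of it Kap) ran from 32610 to 42480 TPM in WT and from 12220 to 37760 in KO, the KO maximum being the library labelled KO ZT4 A. Without Kap that sum was 1694 to 1992 in WT and 1743 to 2345 in KO. The distal convoluted tubule markers (2 of 2) ran from 167.2 to 231.2 TPM in WT (median 202.8) and from 174.2 to 315.1 in KO (median 276.5), and those of the collecting duct (3 of 3) from 143.8 to 246.4 (224.6) and from 195.5 to 442.7 (288.9). The library labelled KO ZT4 A was the lowest KO library for both. Loop of Henle markers (2 of 2) summed to 1140 to 1737 TPM in WT and 1183 to 1432 in KO, and endothelial markers (2 of 2) to 22.9 to 33.0 and 22.8 to 43.1. Leukocyte markers (3 of 3) summed to 14.2 to 64.5 TPM in WT and 19.3 to 28.2 in KO, fat markers (3 of 3) to 0.108 to 9.41 and 0.0726 to 10.5, and liver markers (2 of 2) to 2.17 to 4.47 and 0.740 to 3.10. The part of any of these in the results was not tested. The defining adrenal cortex genes Cyp11b1 and Cyp11b2 were at or near 0 (at most 0.0399 and 0.0129 TPM), as was Cyp21a1 (at most 0.0348), while Star, the fourth gene of that list, was at 0.639 to 1.32 TPM in every library. In whole-tissue RNA, fewer cells of a type and less RNA per cell cannot be told apart.

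Dbp (D site albumin promoter binding protein) swung by far more than its relatives in WT kidney and stayed low at all times in KO kidney. The gene (ENSMUSG00000059824) lies on GRCm38 chromosome 7, 45705088 to 45710203, plus strand. Its WT libraries A and B held 1.17 and 0.989 TPM at ZT0 and 5.88 and 11.1 TPM at ZT4. At ZT8 they held 56.1 and 65.2 TPM, and at ZT12 71.2 and 51.4 TPM. The level then dropped to 16.9 and 13.2 TPM at ZT16 and to 2.26 and 2.36 TPM at ZT20. The highest WT library was thus 72-fold above the lowest, and the ZT8 and ZT12 libraries overlapped each other and no other WT group.

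In KO kidneys Dbp stayed within 2.23-fold. Libraries A and B held 3.36 and 3.57 TPM at ZT0, 5.12 and 3.65 TPM at ZT4, and 2.71 and 4.20 TPM at ZT8. They held 3.23 and 3.46 TPM at ZT12, 2.30 and 2.94 TPM at ZT16, and 2.46 and 2.81 TPM at ZT20. Every KO library therefore lay above both WT libraries of ZT0, and every KO library lay below the WT libraries of ZT4, ZT8, ZT12 and ZT16. The highest KO value was that of the library labelled KO ZT4 A.

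**Figure D1:**
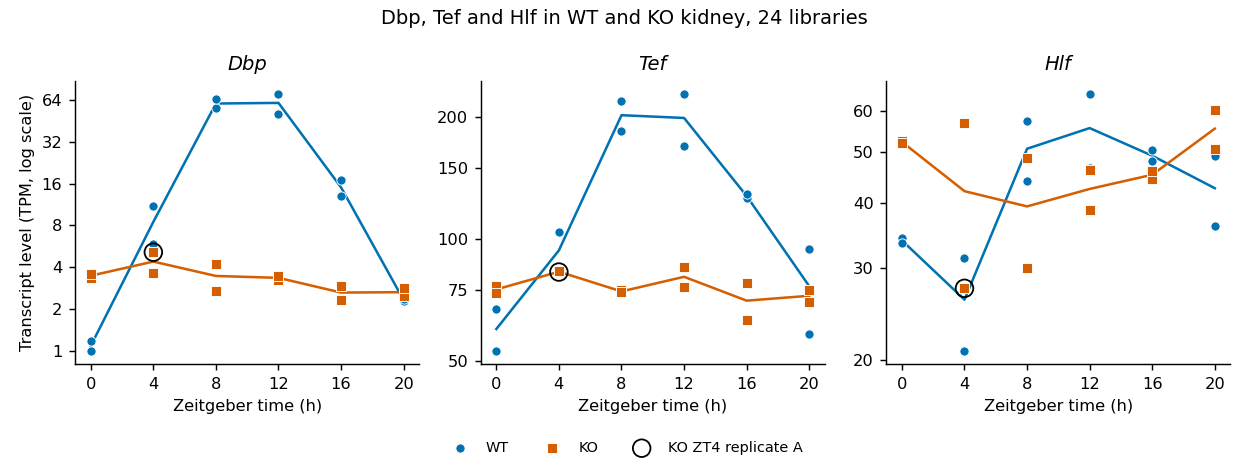
TPM (log scale) of Dbp, Tef and Hlf against zeitgeber time, with 1 point per library (circles WT, squares KO) and lines through the means of 2 libraries; the open ring marks the library labelled KO ZT4 A. WT Dbp spans 0.989 to 71.2 TPM and KO Dbp 2.30 to 5.12 TPM, whereas the Hlf ranges of both genotypes overlap over most of their length.

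Rhythm was measured by a 24-hour cosine fitted to log2(TPM + 0.1), and is given as the fitted peak minus the fitted trough. For Dbp this range was 6.04 log2 units in WT (SE 0.24, limma adjusted p 1.27e-12), with the peak at 10.6 h (SE 0.151). In KO the range was 0.63 log2 units (SE 0.24), which missed the threshold (limma adjusted p 0.237; unadjusted 0.0495). A direct limma test of whether the rhythms of the genotypes differed gave an adjusted p of 1.51e-09. That test, here and below, takes the size and the peak time of the wave together and does not tell them apart. Averaged over the 6 times, Dbp was lower in KO by 1.64 log2 units, with an estimate of -1.64 (SE 0.52, adjusted p 0.0111). That average mixes opposite signs. At ZT0 Dbp was higher in KO by 1.60 log2 units (SE 0.27, adjusted p 0.00839), 3.21-fold in mean TPM. At ZT8 the KO minus WT difference was -4.13 (SE 0.27, adjusted p 1.7e-06) and at ZT12 it was -4.14 (SE 0.27, adjusted p 8.14e-07), so that mean WT levels were 17.6-fold and 18.3-fold those of KO. At ZT16 the difference was -2.48 (SE 0.27, adjusted p 0.000282). It was -0.89 at ZT4 (adjusted p 0.378) and 0.18 at ZT20 (adjusted p 0.754), and neither passed. Without the library labelled KO ZT4 A, which left KO ZT4 B alone at that time, the ZT4 difference was -1.13 (SE 0.32). That SE rested on the spread of other groups. The ZT0 call was lost without WT ZT0 replicate A (adjusted p 0.0633) or without KO ZT0 replicate A (0.0781). Dbp overlaps Sphk2, on the opposite strand, over 737 bases at its 3′ end, and whether strand was used in quantification is not given; Sphk2 ran from 4.96 to 7.18 TPM in WT, with a peak-to-trough range of 0.10 (SE 0.13, adjusted p 0.84), and from 7.37 to 10.1 TPM in KO. Every KO value of Sphk2 was thus above every WT value and above every KO value of Dbp, and the part of shared reads in the KO level of Dbp, its ZT0 call included, was not tested.

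Tef (thyrotroph embryonic factor) was the most abundant of the family and peaked at nearly the same time as Dbp with a shallower wave. The gene (ENSMUSG00000022389) lies on chromosome 15, 81802421 to 81826863, plus strand. WT libraries A and B held 67.2 and 53.0 TPM at ZT0, 83.3 and 104.4 TPM at ZT4, and 184.9 and 219.2 TPM at ZT8. At ZT12 they held 228 and 169.8 TPM, at ZT16 126.6 and 128.9 TPM, and at ZT20 94.8 and 58.4 TPM. The WT libraries spanned 4.30-fold, with those of ZT8 and ZT12 above all others.

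All 12 KO libraries lay between 63.3 and 85.5 TPM, a span of 1.35-fold, with a median of 75.5. None of them reached the WT libraries of ZT8, ZT12 or ZT16, and the KO range fell inside the WT range of ZT20. For Tef the WT range of the fitted wave was 1.86 (SE 0.15, adjusted p 2.76e-07), with the peak at 10.8 h (SE 0.307). In KO it was 0.16 (SE 0.15, adjusted p 0.772), and the rhythms differed (adjusted p 0.000163). The mean KO minus WT difference was -0.58 (SE 0.17, adjusted p 0.0065). By time it was -1.44 at ZT8 (SE 0.20, adjusted p 0.00136), -1.29 at ZT12 (SE 0.20, adjusted p 0.000405) and -0.86 at ZT16 (SE 0.20, adjusted p 0.00811). WT means were 2.72-fold, 2.46-fold and 1.81-fold those of KO at these times. The values at ZT0, ZT4 and ZT20 were 0.33, -0.17 and -0.04 (adjusted p 0.257, 0.677 and 0.941). The ZT16 call was lost without WT ZT16 replicate A (adjusted p 0.0604) or KO ZT16 replicate A (0.0702). Gm17597, an antisense gene, overlaps the first 193 bases of Tef, and without knowing whether strand was used, reads within those bases cannot be assigned to either gene.

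Hlf (hepatic leukemia factor) showed a small, later wave in WT and no detected difference in mean level between genotypes. The gene (ENSMUSG00000003949) lies on chromosome 11, 90336536 to 90390895, minus strand. WT libraries A and B held 34.2 and 33.6 TPM at ZT0, 31.4 and 20.8 TPM at ZT4, and 44.1 and 57.5 TPM at ZT8. At ZT12 they held 64.7 and 46.6 TPM, at ZT16 48.1 and 50.4 TPM, and at ZT20 49.2 and 36.1 TPM. The 4 WT libraries of ZT0 and ZT4 were the lowest of that genotype.

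KO libraries A and B held 52.5 and 52.1 TPM at ZT0, 27.4 and 56.8 TPM at ZT4, and 29.97 and 48.8 TPM at ZT8. At ZT12 they held 46.3 and 38.7 TPM, at ZT16 44.4 and 46.1 TPM, and at ZT20 60.3 and 50.7 TPM. At ZT0 both KO libraries lay above both WT libraries; at ZT4 the library labelled KO ZT4 A lay between the WT values and its partner was above them. At ZT12 and ZT16 both KO libraries lay below both WT libraries, and at ZT20 both lay above them.

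For Hlf the fitted WT range was 0.95 (SE 0.24, adjusted p 0.0311), with the peak at 13.6 h (SE 0.975). That call was lost with no filter on low genes (adjusted p 0.0523) and without WT ZT0 replicate B, WT ZT4 replicate A, WT ZT4 replicate B or WT ZT12 replicate A (0.0519, 0.0585, 0.0714 and 0.0902). In KO the range was 0.53 (SE 0.24, adjusted p 0.367), with a fitted peak at 20.5 h (SE 1.76). The test of the rhythms against each other gave an unadjusted p of 0.00954 and an adjusted p of 0.205, or 0.0829 without the library labelled KO ZT4 A. The mean KO minus WT difference was 0.13 (SE 0.15, adjusted p 0.478), and under median-of-ratios scaling its sign turned to -0.03 (adjusted p 0.896). By time it was 0.63 at ZT0 and 0.63 at ZT4 (SE 0.31 each; adjusted p 0.18 and 0.406), -0.40 at ZT8, -0.37 at ZT12, -0.12 at ZT16 and 0.39 at ZT20, none past the threshold. Without the library labelled KO ZT4 A, which left KO ZT4 B alone at that time, the ZT4 difference of Hlf was 1.15 (SE 0.30). That SE rested on the spread of other groups.

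**Figure D2:**
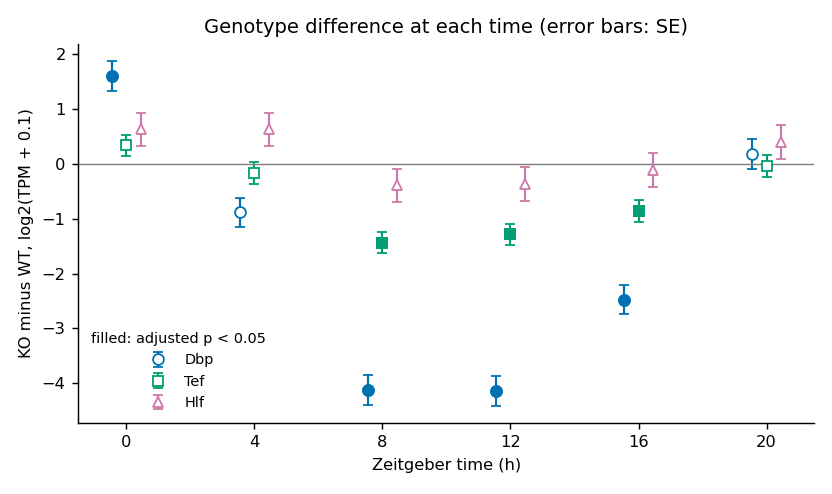
KO minus WT difference in log2(TPM + 0.1) at each zeitgeber time for Dbp (circles), Tef (squares) and Hlf (triangles), with bars of 1 SE; filled symbols have an adjusted p under 0.05. Dbp runs from 1.60 at ZT0 to -4.14 at ZT12, Tef reaches -1.44 at ZT8, and the Hlf values lie between -0.40 and 0.63.

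These calls are read against those of all 12874 genes. In WT all 3 members passed the rhythm test, and 13.7% of genes did. In KO 0 of the 3 passed (1 at an unadjusted p under 0.05), against 3.64% of genes. The difference in rhythm was called for 2 of the 3, Dbp and Tef, and for 0.629% of genes. Dbp and Tef were lower in KO over all times, where 60.9% of genes were called, 10% lower and 50.9% higher. Under median-of-ratios scaling 5678 genes were called in place of 7844, 2767 higher and 2911 lower in place of 6555 and 1289; that scaling moved the median of all genes from 0.15 to 0.00 log2 units, and Dbp and Tef were called lower under it too. Of the 18 differences by member and time, 7 were called, 1 higher and 6 lower in KO. Over all genes, 13.4% were called at ZT0 (10.7% higher), 14.6% at ZT8 (3.44% lower), 38.2% at ZT12 (6.24% lower), 21.5% at ZT16 (4.47% lower) and 3.72% at ZT20. At ZT4, a time at which KO included the library labelled KO ZT4 A, limma called 0% of genes (1637 genes at an unadjusted p under 0.05).

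Ordered by mean level over the 12 groups, Dbp ran from WT ZT12 and WT ZT8 (61.3 and 60.7 TPM, which overlapped) through WT ZT16 (15.0) and WT ZT4 (8.48) to the 6 KO groups and WT ZT20, with WT ZT0 lowest (1.08). Between WT ZT4 and WT ZT20 the KO groups followed from 4.39 to 2.62 TPM. Among neighbours in this order, KO ZT0, ZT8 and ZT12 overlapped, as did KO ZT20 and ZT16, and KO ZT16 and WT ZT20. KO ZT8 (2.71 and 4.20 TPM) also overlapped KO ZT4, ZT16 and ZT20. For Tef, WT ZT8 and WT ZT12 (202.1 and 198.9 TPM) overlapped and stood above WT ZT16 (128); from WT ZT4 (93.9) down to WT ZT0 (60.1) each group overlapped the next. For Hlf the order mixed the genotypes, from WT ZT12 (55.6 TPM) and KO ZT20 (55.5) to WT ZT0 (33.9) and WT ZT4 (26.1), and most neighbours overlapped.

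**Figure D3:**
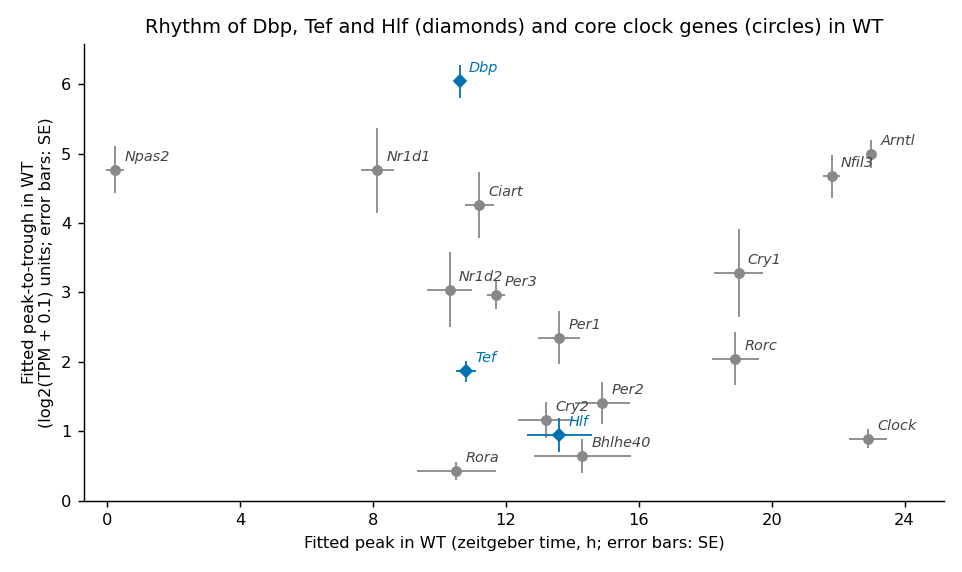
Fitted peak-to-trough range against fitted peak time in WT for Dbp, Tef and Hlf (diamonds) and 15 core clock genes (circles), with bars of 1 SE. Dbp has the highest fitted value shown, 6.04 log2 units, and peaks with Tef near 10.6 to 10.8 h, about opposite in the day to Nfil3 at 21.8 h and Arntl at 23.0 h.

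The deposited transcripts show which products carried these patterns. Dbp was represented by 1 of its 5 annotated transcripts, Dbp-201 (1837 bases, 4 exons), so its gene values are those of that transcript. All 10 Tef and all 6 Hlf transcripts were in the table, and 6 and 3 of them had a mean of at least 1 TPM and were tested. A large part of the gene values came from short transcripts that are annotated as non-coding. Tef-205, a processed transcript of 248 bases, held a median of 46.1% of Tef TPM (36.2% to 53.2% over the 24 libraries). Hlf-205, of 245 bases, held a median of 45.4% of Hlf TPM (27.3% to 53.7%). Transcripts of a gene share reads, so this split is an estimate of the quantifier.

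Tef makes 2 long coding transcripts from its 2 starts, Tef-202 (4403 bases) from the upstream and Tef-201 (4079 bases) from the downstream start, and both followed the WT wave. Tef-202 held 15.2 and 15.96 TPM in WT at ZT0 and 54.0 and 48.4 TPM at ZT12, and its KO libraries ran from 14.6 to 22.7 TPM. Tef-201 held 7.28 and 6.404 TPM in WT at ZT0 and 20.7 and 26.4 TPM at ZT8, and its KO libraries ran from 6.95 to 12.9 TPM. Their WT ranges of the fitted wave were 1.73 (SE 0.12) and 1.73 (SE 0.20) log2 units, with peaks at 11.3 h and 11 h. A rhythm that differed between genotypes was called for each (adjusted p 5.35e-05 for Tef-202 and 0.0241 for Tef-201). For Tef-201 that call was lost without WT ZT0 replicate A, WT ZT0 replicate B, WT ZT12 replicate A or KO ZT20 replicate A (adjusted p 0.05 to 0.0768). Tef-201 made up a median of 31.8% of these 2 transcripts in WT and 37.4% in KO, with ranges of 28.6% to 36.3% and 23.4% to 42.9% that overlapped.

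The other Tef transcripts gave similar values where they were abundant. Tef-205, Tef-203 and Tef-207, the last 2 annotated with a retained intron, had WT ranges of 1.99 (SE 0.25), 2.19 (SE 0.19) and 1.93 (SE 0.17), and their differences in rhythm were called (adjusted p 0.0223, 0.00487 and 0.00244). For Tef-205 the call was lost without WT ZT0 replicate B, WT ZT8 replicate B, WT ZT12 replicate A or KO ZT12 replicate A (adjusted p 0.0504 to 0.0731). Tef-210, a coding fragment of 399 bases, was at 0.297 to 1.95 TPM and was called in none of the 4 tests (unadjusted p 0.218 to 0.703). The 4 untested Tef transcripts, Tef-204, Tef-206, Tef-208 and Tef-209, had means of 0.0652 to 0.269 TPM.

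Among Hlf transcripts the long coding Hlf-201 (5642 bases) held 11.6 and 11.9 TPM in WT at ZT0 and 19.3 and 16.4 TPM at ZT12. In KO its lowest value, 9.71 TPM, was that of the library labelled KO ZT4 A, and the others lay between 15.4 and 19.4 TPM. Its fitted range was 0.82 in WT (SE 0.18, adjusted p 0.019), with the peak at 13.7 h, and 0.30 in KO (SE 0.18, adjusted p 0.663). The WT call was lost without WT ZT4 replicate B or WT ZT12 replicate A (0.0503 and 0.0539). The genotypes' rhythms did not pass as different (adjusted p 0.421), and passed without the library labelled KO ZT4 A (adjusted p 0.0406). The mean KO minus WT difference of Hlf-201 was 0.23 (SE 0.10, adjusted p 0.0693), or 0.28 (SE 0.10) without that library. Over the 24 fits that left out 1 library it ran from 0.17 to 0.28. It passed without the library labelled KO ZT4 A, and likewise without WT ZT8 replicate B, WT ZT12 replicate A or KO ZT12 replicate A. Hlf-203, annotated as a processed transcript, had a WT range of 1.09 (SE 0.22, adjusted p 0.0131), which was lost without WT ZT0 replicate B (0.0652). In KO the range of Hlf-203 was 0.44 (SE 0.22), with a fitted peak at 22.9 h (SE 1.95), and its WT peak was at 12.2 h (SE 0.781). Its rhythms did not pass as different between genotypes (limma unadjusted p 0.000473, adjusted p 0.0982), and passed without WT ZT20 replicate A. Hlf-205 had a WT range of 1.11 (SE 0.42, adjusted p 0.233), and its libraries spread widely within groups, for example 9.47 and 28.9 TPM at KO ZT4. Hlf-202, Hlf-204 and Hlf-206 had means of 0.109 to 0.853 TPM and were not tested.

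**Figure D4:**
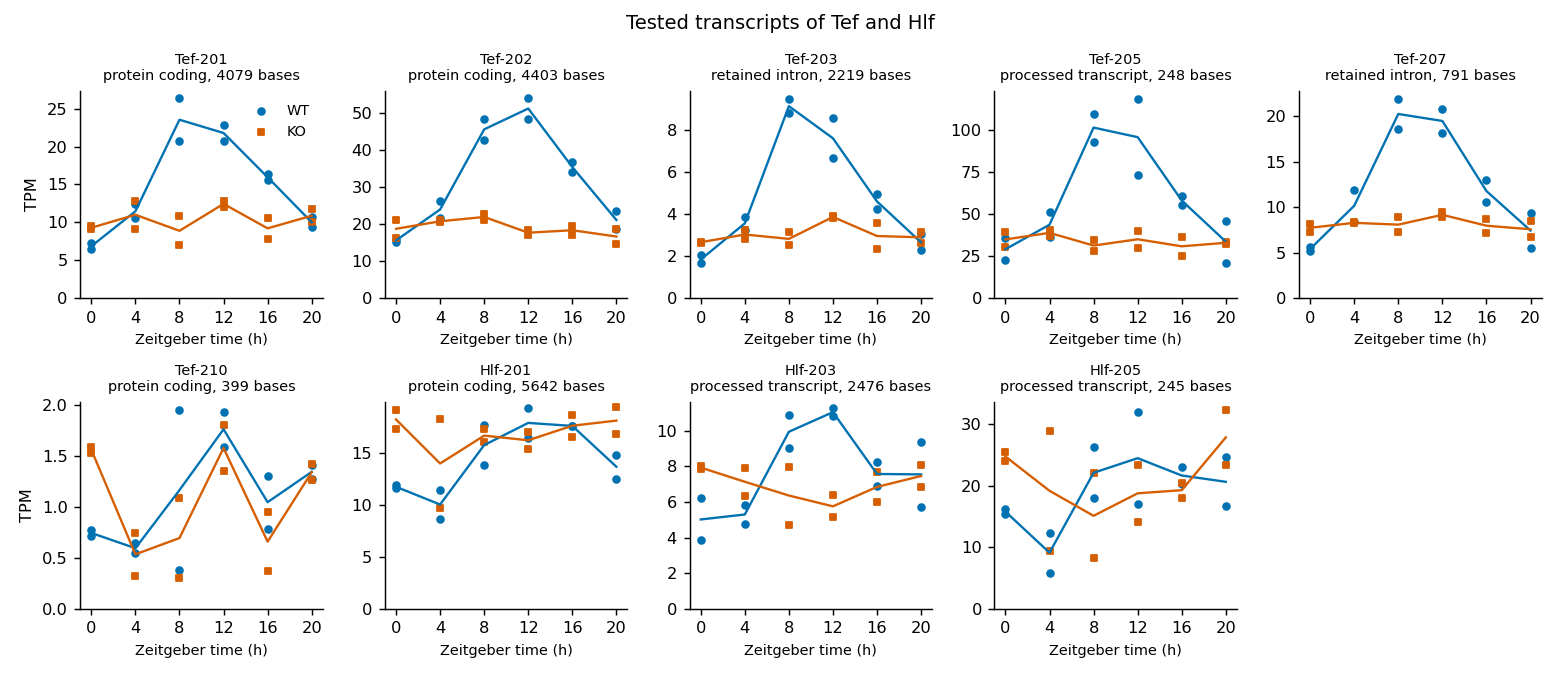
TPM of the 9 tested transcripts of Tef and Hlf against zeitgeber time, with 1 point per library (circles WT, squares KO) and lines through the means of 2 libraries; each vertical axis starts at 0. The WT wave of Tef appears in Tef-201, Tef-202, Tef-203, Tef-205 and Tef-207, and the lowest KO point of Hlf-201, 9.71 TPM, is the library labelled KO ZT4 A.

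Of the 10 tested member transcripts 8 were rhythmic in WT, against 6.86% of the 26725 transcripts tested. In KO 0 were (1, Tef-202, at an unadjusted p of 0.0287), against 1.2%. The difference in rhythm was called for 6, Dbp-201 and 5 of Tef, against 0.266%. Lower levels in KO over all times were called for the same 6, where 38.8% of transcripts were called and 7.08% were called lower. That count of 6 fell to 2 with no filter on low transcripts and to 3 without a time term, and to 3 (Dbp-201, Tef-202 and Tef-205) in each fit without 1 library of WT ZT8, WT ZT12, KO ZT8 or KO ZT12, without WT ZT16 replicate A and without KO ZT16 replicate A. Over the 24 fits that left out 1 library, the calls of Tef-201, Tef-203 and Tef-207 were lost in 14, 14 and 13, with adjusted p from 0.0504 to 0.0841. The genotype calls of Tef-201 and Tef-203 were among those lost without the library labelled KO ZT4 A. Their differences were then -0.42 (SE 0.17) and -0.48 (SE 0.19). With time as a factor the count of 6 for the difference in rhythm fell to 2.

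The family's dose was also summed over its long coding transcripts (Dbp-201, Tef-201, Tef-202 and Hlf-201). In WT the sum rose from 35.2 TPM in both libraries of ZT0 to 145.5 ± 17.2 (SD, n = 2) at ZT8 and 152.1 ± 21.5 at ZT12, and was 47.0 ± 6.06 at ZT20. In KO it lay between 47.7 ± 0.767 (SD, n = 2) at ZT16 and 50.9 ± 3.51 at ZT8. Over single libraries the KO sums ran from 44.2 to 55.1 TPM, and the WT sums from 35.2 to 167.3. The mix changed as well. Dbp made up 3.07% ± 0.365 (SD, n = 2) of the sum in WT at ZT0 and 41.7% ± 0.522 at ZT8, and from 4.72% to 11.4% in the KO libraries, or to 7.88% without the library labelled KO ZT4 A. Hlf made up 33.3% ± 0.584 of the WT sum at ZT0, 10.8% ± 0.598 at ZT8, and 21.6% to 39.6% in KO, where the lowest value without that library was 31.7%. Tef was the main coding transcript source in every library, at 45.9% to 66.8% in WT and 53.4% to 67.0% in KO (61.6% at most without that library). The sums were not tested, since they add the values tested above.

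**Figure D5:**
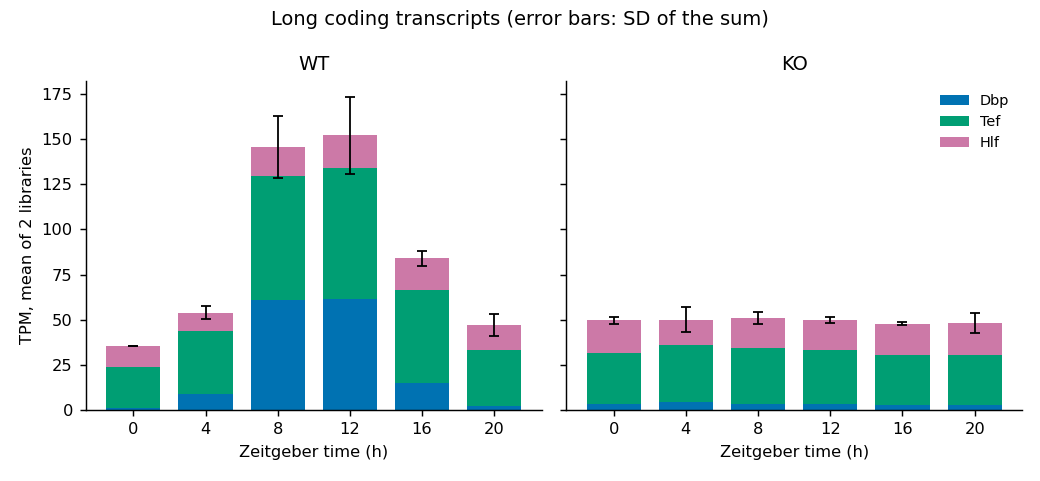
Mean TPM of the long coding transcripts of Dbp, Tef and Hlf, stacked, at each zeitgeber time in WT (left) and KO (right), with the SD of the sum over 2 libraries. The WT sum climbs from 35.2 TPM at ZT0 to 152.1 TPM at ZT12, while the KO sums stay between 47.7 and 50.9 TPM.

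Nfil3, the D-box repressor, was the mirror image of Dbp in WT and was raised in KO at the times when Dbp was lowered. In WT it held 13.8 and 14.02 TPM at ZT0, 0.791 and 0.634 TPM at ZT8, and 0.567 and 0.746 TPM at ZT12. KO libraries held 9.31 and 11.1 TPM at ZT0, 10.4 and 11.2 TPM at ZT8, and 19.97 and 12.5 TPM at ZT12. The groups were thus far apart at ZT8 and ZT12, and at ZT0 the KO libraries were the lower ones. Its fitted range was 4.67 in WT (SE 0.31, adjusted p 2.9e-08), with the peak at 21.8 h (SE 0.254), and 0.63 in KO (SE 0.31, adjusted p 0.411), and the rhythms differed (adjusted p 4.39e-06). At ZT8 the KO minus WT difference of Nfil3 was 3.75 (SE 0.37, adjusted p 0.000131), beside -4.13 for Dbp, and at ZT12 it was 4.41 (SE 0.37, adjusted p 1.15e-05), beside -4.14. At ZT16 it was 1.27 (SE 0.37, adjusted p 0.0279). At ZT0, ZT4 and ZT20 it was -0.45, 1.34 and -0.22 (adjusted p 0.436, 0.378 and 0.787). At ZT4 the library labelled KO ZT4 A held 4.58 TPM and its partner 11.6 TPM, against 4.03 and 1.95 TPM in WT. With that partner alone as the KO library of ZT4, the difference of Nfil3 was 2.00 (SE 0.35).

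Of the other bZIP genes that share related sites, the C/EBP factors, 4 of 5 were tested, since Cebpe had a median of at most 0.0362 TPM in either genotype. With Nfil3, 2 of the 5 tested genes of that list were called for the genotype difference, both higher in KO: Nfil3 by 1.68 (SE 0.45, adjusted p 0.00407) and Cebpa by 0.50 (SE 0.12, adjusted p 0.00109). Over all genes 60.9% were called and 50.9% were higher. Nfil3 was the only gene of the 5 called for rhythm in WT or for the difference, and 0 were called in KO (1 at an unadjusted p under 0.05). The shares over all genes were 13.7% for WT, 0.629% for the difference and 3.64% for KO. Under median-of-ratios scaling Cebpg was called too, as lower in KO and as rhythmic in WT. The list's median WT range was 0.79, beside 0.25 over all genes.

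In the core clock list of 16 genes, 15 were tested, and 13 were rhythmic in WT. Over all genes 13.7% were called for rhythm in WT, 3.64% for rhythm in KO and 0.629% for the difference. The list's median WT range was 2.97, beside 0.25 over all genes, and Dbp with 6.04 was above each of the 15. Its peak fell between those of Nr1d1 (8.13 h, SE 0.492; 4.76 log2 units, SE 0.61) and Ciart (11.2 h, SE 0.43; 4.26, SE 0.48), both repressors of the clock loop, and close to Per3 (11.7 h, SE 0.27; 2.97, SE 0.21). Arntl (23.0 h, SE 0.151; 4.99, SE 0.20) and its relative Npas2 (0.23 h, SE 0.275; 4.77, SE 0.34) peaked at the other end of the day. In KO 1 of the 15 was called, Per1, a light- and feeding-responsive repressor gene (1.81, SE 0.39, adjusted p 0.0279), and the call was lost without KO ZT12 replicate A, KO ZT0 replicate B or either library labelled KO ZT4 (adjusted p 0.0512 to 0.0638). The difference in rhythm was called for 5, namely Arntl, Nfil3, Npas2, Per3 and Ciart, with adjusted p from 1.04e-09 to 0.0089, and for 9 without the library labelled KO ZT4 A. The genotype difference was called for 12 of the 15, 6 higher and 6 lower, where 50.9% of all genes were higher and 10% lower, with a list median of -0.05, beside 0.15 over all genes.

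Genes reported elsewhere as targets of the PAR bZIP factors or as lower in mice without them moved in both directions. Of 22 listed, 16 were tested; Nr1i3, Cyp2b10, Cyp2c37, Cyp2c50, Cyp2c54 and Cyp7a1, most of them liver genes, had means under 1 TPM. The genotype difference was called for 12 of the 16, with 7 higher and 5 lower in KO, where 60.9% of all genes were called, 50.9% higher and 10% lower. The list's median was 0.13, beside 0.15 over all genes; under median-of-ratios scaling 11 were called, 5 higher and 6 lower, with a median of -0.03. The largest falls were those of Cyp2a5 and Cyp2a4, near-identical cytochrome P450 genes whose reads may be shared. Cyp2a5 had a median of 117.7 TPM in WT (65.5 to 250.3) and of 2.39 in KO (1.47 to 50.3), and its difference was -5.33 (SE 0.44, adjusted p 2.56e-07). Cyp2a4 had medians of 247.3 and 17.1 TPM and a difference of -4.08 (SE 0.47, adjusted p 2.14e-06). For both, the highest KO value was that of the library labelled KO ZT4 A (50.3 and 177.2 TPM). Por, the electron donor of microsomal P450 enzymes, was lower by a smaller step, with medians of 127.2 and 82.5 TPM (difference -0.59, SE 0.09, adjusted p 1.38e-05).

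Other listed genes moved the opposite way. Cyp4a14, a fatty acid hydroxylase, had medians of 8.03 TPM in WT and 159.1 in KO (4.22, SE 0.55, adjusted p 6.71e-06). Ddc, which makes dopamine in the proximal tubule, had 36.4 and 85.5 TPM (1.29, SE 0.16, adjusted p 2.81e-06). Pdxk, which makes the active form of vitamin B6, had 18.0 and 29.7 TPM (0.76, SE 0.09, adjusted p 2.18e-06).

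For rhythm in WT 6 of these 16 genes were called, with peaks at several times of day, where 13.7% of all genes were called. Por (0.61 log2 units, SE 0.12, adjusted p 0.00429) peaked at 11.4 h, Upp2, a uridine phosphorylase (1.01, SE 0.17, adjusted p 0.00141), at 10.3 h, and Usp2, a deubiquitinase (1.25, SE 0.24, adjusted p 0.0047), at 12.9 h. These 3 peaks lay within 3 h of that of Dbp. Alas1, the rate-limiting enzyme of haem synthesis (1.38, SE 0.19, adjusted p 0.000316), peaked at 17.3 h. Ddc (1.399, SE 0.14, adjusted p 1.09e-05) and Abcg2, a urate and drug efflux pump (0.30, SE 0.08, adjusted p 0.0306), peaked at 2.22 h and 3.23 h. Abcg2 was not called under median-of-ratios scaling (adjusted p 0.201), and its call was lost in 7 of the 24 fits that left out 1 library, all of them WT libraries (0.0519 to 0.0776). Without the library labelled KO ZT4 A, Cyp2a5 was called as well (1.64, SE 0.36, adjusted p 0.013). The list's median range in WT was 0.69, beside 0.25 over all genes.

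Rhythm in KO was called for 3 of the 16, and for 3.64% of all genes. These 3 were the acyl-CoA thioesterase genes Acot2 (1.35, SE 0.20, limma adjusted p 0.003) and Acot3 (1.34, SE 0.31, adjusted p 0.0409), which have near-identical copies, and Alas1 (0.97, SE 0.19, adjusted p 0.0195). Acot3 was lost in 11 of the 24 fits without 1 library (0.0514 to 0.0977), Alas1 without KO ZT8 replicate A or KO ZT20 replicate B (0.0637 and 0.0588), and with the KO libraries fitted alone none of the 3 was (0.0989 to 0.188). The difference in rhythm was called for Ddc (limma adjusted p 0.000141), Acot2 (0.0257) and Por (0.0437), and for 0.629% of all genes. The call of Por was lost in 17 of the 24 fits without 1 library (0.0525 to 0.097), and that of Acot2 without WT ZT4 replicate A, WT ZT4 replicate B, WT ZT12 replicate B or WT ZT16 replicate A (0.0506 to 0.0603). The calls of Por and Acot2 were also lost with no filter (limma adjusted p 0.0872 and 0.0518). With time as a 6-level factor they were lost too (0.15 and 0.264), and under median-of-ratios scaling that of Por was lost (0.063). The fitted range of Acot2 was 0.35 (SE 0.20) in WT, below its KO value. That of Por was 0.31 (SE 0.12) in KO, with a fitted peak at 2.98 h (SE 1.44), against 11.4 h in WT. For Ddc the KO range was 0.36 (SE 0.14), with a fitted peak at 14.7 h (SE 1.5), against 2.22 h in WT. Neither Por nor Ddc was called as rhythmic in KO.

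Genes with the pattern most like each member were ranked by the Pearson correlation of log2(TPM + 0.1), given as a description over libraries that share genotype and time groups. Over the 24 libraries the 5 closest to Dbp were Tef (0.964), Per3 (0.920), Ciart (0.896), Slc2a5 (0.880), a fructose transporter, and Castor1 (0.874), an arginine sensor. The 5 closest to Tef were Dbp, Per3 (0.919), Slc2a5 (0.916), Ciart (0.888) and Cpeb3 (0.888). Hlf had a different neighbourhood: Mertk (0.789), Sertad2 (0.741), Kdm6b (0.727), Vasn (0.705) and Mpp2 (0.696), with Tef at 0.330 and Dbp at 0.257. Over the 12 WT libraries alone, Hlf correlated at 0.645 with Tef and 0.523 with Dbp, and its closest genes were Stk32b (0.939), Cobll1 (0.919), Myo3b (0.908), Kdm6b (0.907) and Mertk (0.907). Dbp then had Castor1 (0.977), Paox (0.968), Nr1d2 (0.967), Tef (0.962) and Acsm5 (0.956), and Tef had Dbp, Acsm5 (0.953), Dgat2 (0.953), Prodh (0.945) and Cog7 (0.940).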

How the data were processed

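Polyadenylated kidney RNA of 24 libraries was analysed; 20 chromatin-contact libraries of the series were not used here. The authors deposited TPM per transcript, made with kallisto 0.42.4, and the builds mm10 and GRCm38 are named, per the submitters' processing notes. Deposited TPM columns all have nearly the same total, so the direction of a small change depends on the scaling. Transcripts were summed to genes by identifier without version through GENCODE M21: 86119 of 88198 matched, and the 2079 others, with 1.35% to 2.24% of TPM, were left out of gene sums.

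Groups came from the labels. limma 3.58.1 in R 4.3.3 (lmFit, eBayes with trend and robust options) was run on log2(TPM + 0.1) for the 12874 genes, and separately the 26725 transcripts, with a mean of at least 1 TPM. Differences in log2 units are on that scale, which understates changes of low genes. Fold values are plain ratios of TPM. Benjamini-Hochberg adjustment covered all features tested, with an adjusted p under 0.05 as the threshold. The genotype difference used time as a 6-level factor; rhythm used a 24-hour cosine and sine per genotype with 1 shared spread (F tests); differences at each time came from 12 group means. Tests of a difference in level were two-sided. The fits were also run on simulated data with independent noise in every library, which cannot check the labels or pairing of these libraries. Tables were handled with Python 3.11.15 and pandas 2.3.3.

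The members and lists were chosen with earlier results of these data known. Named genes were the members, their transcripts, up to 6 genes of a list with the smallest p in the test described, and the 5 genes most correlated with each member; Cry1 and Nr1d1 in the library check were named outside that rule. Alternatives covered the pseudocount, the filter, the scaling, a replicate block, each library left out, each genotype fitted alone, and time as a factor or absent. Leaving out a library left its partner alone in that group, so a difference at that time rested on the spread of other groups. List counts under another scaling, and list counts, listed genes and the coding sum without the library labelled KO ZT4 A, were alternatives chosen after seeing the data.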

Additional observations from a re-analysis of the deposited data

Results flagged for a closer look

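A test of the difference itself showed a rhythm that differed between WT and KO for Dbp (limma adjusted p 1.51e-09), with fitted peak-to-trough ranges of 6.04 (WT) and 0.63 (KO) on the log2 scale, and for Tef (0.000163), with ranges of 1.86 and 0.16. Of their transcripts it was called for Dbp-201 (1.07e-08), Tef-202 (5.35e-05), Tef-207 (0.00244), Tef-203 (0.00487), Tef-205 (0.0223) and Tef-201 (0.0241), each with the larger value in WT. Among the listed genes it was called for Arntl (1.04e-09), Nfil3 (4.39e-06), Npas2 (9.96e-06), Per3 (5.87e-05), Ciart (0.0089), Ddc (0.000141), Acot2 (0.0257) and Por (0.0437), with the larger value in KO for Acot2. The calls of Acot2 and Por were lost under the alternatives given above. With 2 libraries per group no test for an outlying library within a group was run.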

How the results depend on the processing

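The calls of Dbp and Tef for the genotype difference, the WT rhythm and the difference in rhythm held in all 24 fits that left out 1 library and under each other alternative run. The WT rhythm of Hlf was lost with no filter (0.948 log2 units, adjusted p 0.0523), and without 1 library it ran from 0.747 to 1.054. Under median-of-ratios scaling the genotype difference turned sign, uncalled before and after, for Hlf (-0.027) and Hlf-205 (-0.014). Without 1 library the following ran from the lower to the upper value: Dbp at ZT0 1.488 to 1.711 and at ZT4 -1.339 to -0.434; Tef at ZT16 -1.013 to -0.714 and at ZT20 -0.386 to 0.312; Hlf at ZT4 0.101 to 1.148; Hlf-205 -0.005 to 0.269 and Tef-210 -0.197 to 0.050 for genotype. The adjusted p of the difference in rhythm ran from 0.426 to 0.699 for Hlf-205 and from 0.714 to 0.908 for Tef-210, whose uncalled amplitude differences turned sign in some of these fits.

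Counts of all genes called moved as follows. With each genotype fitted alone, 2843 genes were rhythmic in WT (1761 with the shared spread) and 12 in KO (468). With no filter, 295 were rhythmic in KO, 43 had a different rhythm (81 with it), and 12 were called at ZT4 (0 with it) and 242 at ZT20 (479). With time as a 6-level factor 23 genes had a different rhythm. A pseudocount of 1 TPM gave 1 call at ZT4, and median-of-ratios scaling 3080 at ZT12 (4914). Without 1 library the counts ran from 272 to 620 for rhythm in KO, 37 to 112 for the difference, 1 to 2401 at ZT0, 0 to 1489 at ZT4, 74 to 2410 at ZT8, 2129 to 5357 at ZT12, 573 to 3282 at ZT16 and 1 to 1104 at ZT20. For transcripts the genotype count was 6082 at a mean of at least 5 TPM (10360 at 1 TPM). The WT rhythm count was 1158 with no filter (1834 with it) and 1173 to 2141 without 1 library. The KO rhythm count was 115 with no filter, 496 at 5 TPM, 12 with KO alone and 169 to 409 without 1 library (322 over all), and the difference gave 20 with time as a factor and 45 to 89 without 1 library (71 over all). Of the members' own transcripts, the 6 called for genotype became 2 with no filter, 3 with no time term and 3 to 6 without 1 library, and the 6 with a different rhythm became 2 with time as a factor. The cause of these shifts was not tested.

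Whether the letters A and B pair the libraries was looked at over all groups together. Over 66 pairs of groups the correlation of the A minus B differences ran from -0.32 to 0.34 (median 0.02), and 21 pairs were above 0.1. WT and KO of the same time were not looked at apart, so pairing within a time was not tested. With the letter as a replicate block, no call of Dbp, Tef or Hlf changed, and of their transcripts the genotype call of Tef-201 was lost, leaving 5 of the 6. Dbp kept a genotype difference of -1.641 (adjusted p 0.0135) and Hlf a WT rhythm of 0.948 (0.0372), and 7873 genes were called in place of 7844 for genotype and 76 in place of 81 for the difference in rhythm. TPM keeps no depth, so what depth limits could not be measured.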
